A study of Mus musculus with 15 samples.

Results

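Parvalbumin-positive (Pv+) and somatostatin-positive (Sst+) interneurons were compared gene by gene, each by the RNA of 5 single cells, 10 of the 15 cells in the series. The other 5 cells, positive for VGT3, were not used. The 10 cells were taken by their labels alone, in the deposited table of TPM values, which are shares of the transcripts corrected for gene length, and no measured value entered the choice. Each cell was an RFP-positive neuron in an organotypic slice culture of the hippocampus, which is a slice of young brain kept alive in a dish. The slices were made from C57BL6 mouse pups of either sex at postnatal day 6 to 7. The Pv+ cells (Pv/RFP) came from slices of Pv-Cre mice crossed to a TdTomato reporter line, and the Sst+ cells (Sst/RFP) from Sst-Cre mice likewise crossed to a TdTomato reporter. Both types therefore carried a Cre driver and the red reporter, and the labels name no drug. A red cell shows that Cre was active at some time in that cell or its ancestors. Cytosol was drawn into a patch pipette, and the RNA of each cell was made into 1 library by the SMART-Seq HT method. All 10 sample titles carry the same library code, G709.

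No label names the animal or the culture of a cell, so each type counts here as 1 sample. Type, mouse line, animal and culture cannot be told apart. For that reason no test was made, and the SDs below are the spread between 5 cells. Fewer transcripts of a gene and less RNA drawn from a cell cannot be told apart in single values either, since TPM adds up to 1000000 in each cell.

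Parvalbumin and somatostatin interneurons are the main inhibitory cells that descend from the medial ganglionic eminence. Parvalbumin basket cells fire fast and place their synapses on the cell bodies of pyramidal neurons, whereas somatostatin cells of the stratum oriens mostly send axons to the distal dendrites. Parvalbumin cells are known for fast potassium channels, many mitochondria and tightly timed release of GABA. Somatostatin cells are known for the peptides they store in dense-core vesicles.

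The labels fitted the levels of Pvalb and Sst in all 10 cells. Pvalb, the calcium-binding protein that names the Pv+ cells, had 3136, 4025, 4293, 7383 and 4068 TPM in the Pv+ cells, against 0.166, 0.643, 0, 55.1 and 0.117 TPM in the Sst+ cells. Sst, the peptide that names the Sst+ cells, had 0, 0.458, 0, 0.186 and 0 TPM in the Pv+ cells, against 2689, 3690.1, 4539, 2773 and 1804 TPM in the Sst+ cells. The groups did not overlap for either gene. Pv+ cell 2 and Sst+ cell 4 held the highest value of the gene that their own type should lack. On the marker lists, 11 of 12 Pvalb markers had the higher mean in Pv+ cells. Of 17 Sst markers above 0, 15 had the higher mean in Sst+ cells. The other 2, Crh and Tll1, named after their values were seen, were higher in Pv+ cells. Crh had 81.0 TPM in Pv+ cell 1 and 0 elsewhere, and Tll1 was above 0 in all Pv+ cells and at 0 in all Sst+ cells. The number of reads counted on genes, estimated from the steps of low TPM values, was 13.2 to 18.5 M in Pv+ cells and 14.1 to 22.5 M in Sst+ cells. The number of genes above 0 was 8439 to 11156 in Pv+ cells (median 9934) and 7226 to 10191 in Sst+ cells (median 7849). The 10 most abundant genes took 23.6% to 31.9% of the TPM of Pv+ cells and 17.4% to 28.1% of that of Sst+ cells. Genes of glutamatergic neurons were mostly absent, with 4 of 12 above 0 in any cell, and the defining vesicular glutamate transporters Slc17a7 and Slc17a6 were at 0 in all 10 cells. Of 10 endothelial and pericyte genes, 3 were above 0 in any cell. Microglia and astrocyte transcripts were present, and they are given below beside the genes they moved with.

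The table lists 43629 genes, and the 11966 that averaged 1 TPM or more over the 10 cells were compared. The quantity used throughout is the difference of the mean log2(TPM + 1), Pv+ minus Sst+, so that a positive value means higher in Pv+ cells. A difference of 2 corresponds to 4-fold on this scale, which understates the change of low genes. By this measure 1037 genes (8.67%) were at least 2 higher in Pv+ cells and 925 genes (7.73%) were at least 2 higher in Sst+ cells. All 5 Pv+ cells lay above all 5 Sst+ cells for 255 genes (2.13%), and all 5 Sst+ cells lay above all 5 Pv+ cells for 394 genes (3.29%). Of the genes at least 2 apart, 16.1% of those higher in Pv+ cells and 23.6% of those higher in Sst+ cells had no overlap of cells.

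The split between the directions depended on how the cells were scaled, on the filter and on single cells. A total of 2704 genes were above 0 in every one of the 10 cells, and their median difference was -0.38, so that the shared genes as a whole were lower in Pv+ cells. When TPM was divided by size factors, which set that median close to 0, the genes at least 2 higher in Pv+ cells made up 66.9% of the genes at least 2 apart, against 52.9% with TPM as deposited. The count without overlap became 395 higher in Pv+ cells and 216 higher in Sst+ cells, and the median over the compared genes became 0.22, against -0.04 as deposited. Leaving out Pv+ cell 1 gave 393 genes higher in Pv+ cells without overlap, where 4 cells stood against 5. A cell left out can only keep or raise that count. Without Pv+ cell 3, Sst+ cell 1 or Sst+ cell 2, the share higher in Pv+ cells was 48.8%, 48.4% and 48.7%, and with a mean of at least 10 TPM it was 47.7%, so the side with more genes turned. The 23 list medians nearer to 0 than 0.5 are no steadier, since 13 of them were at 0 or of the other sign without some cell. Gene differences well under 1 on the log2 scale are therefore of the size of this shift.

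The spread between cells also differed by type. Taking the 3719 genes that averaged 10 TPM or more in both types, the median SD of log2(TPM + 1) was 1.02 in Pv+ cells and 2.30 in Sst+ cells, and 77.9% of these genes had the larger SD in Sst+ cells. Of the 11966 compared genes, 57 were above 0 in all Pv+ cells and listed at 0 in all Sst+ cells, and 6 showed the reverse. Fewer genes were above 0 in Sst+ cells (median 7849) than in Pv+ cells (median 9934). The part of this in the SDs and in these counts was not tested.

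**Figure D1:**
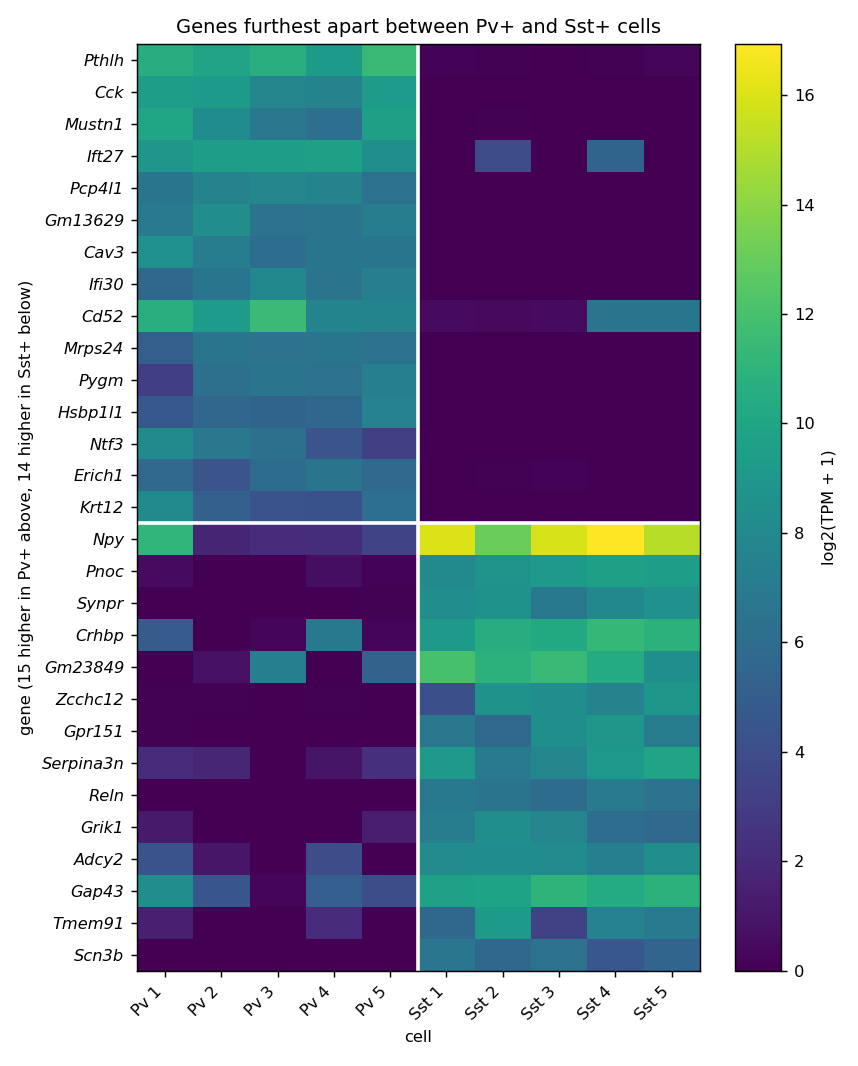
Level of 15 genes higher in Pv+ cells and 14 higher in Sst+ cells from those furthest apart, as log2(TPM + 1) by colour, with genes down the page and the 5 Pv+ and 5 Sst+ cells across. Most genes of the upper block are at or near 0 in Sst+ cells, except Ift27 and Cd52 in some Sst+ cells, and Pv+ cell 1 stands out for Npy and Gap43 in the lower block.

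The 15 genes furthest apart in each direction were taken among the 202 genes higher in Pv+ and the 343 higher in Sst+ cells that were above 0 in all 5 cells of the higher type, averaged 10 TPM or more there and did not overlap. At the top of the Pv+ side stood Pthlh, the precursor of parathyroid hormone-related protein, with 1494, 955, 1550.4, 599 and 2674 TPM in the Pv+ cells, against 0.108, 0.0696, 0, 0.0743 and 0.228 TPM in the Sst+ cells. Every Pv+ cell held it at a high level and no Sst+ cell reached 1 TPM. Mustn1, a small protein described in muscle and cartilage, had 1017, 297, 108, 71.0 and 796 TPM in the Pv+ cells, against 0, 0.0948, 0, 0 and 0 TPM in the Sst+ cells, and Ift27, a small GTPase of the cilium, had 504, 684, 705, 799.8 and 338 TPM in the Pv+ cells, against 0, 13.6, 0, 43.2 and 0 TPM in the Sst+ cells. The muscle caveolin Cav3 was at 371, 143, 67.1, 95.1 and 94.5 TPM in the Pv+ cells and listed at 0 in all 5 Sst+ cells. The same held for Pygm, the muscle form of glycogen phosphorylase, at 8.02, 75.6, 90.9, 81.5 and 159 TPM in Pv+ cells. Pcp4l1 (80.1 to 226 TPM in Pv+ cells), Mrps24 of the mitochondrial ribosome (34.04 to 95.3 TPM), the keratin Krt12 (18.0 to 272 TPM), Hsbp1l1 (24.6 to 182 TPM) and Gm13629 (87.4 to 328 TPM) were also listed at 0 in every Sst+ cell. Erich1 had 20.7 to 91.6 TPM in Pv+ cells and no more than 0.109 TPM in any Sst+ cell.

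Of the remaining genes in that group, Cd52 and Ifi30 are known from immune cells. Cd52, a surface glycoprotein of leukocytes, had 1600.2, 619.7, 3003, 199.7 and 198 TPM in the Pv+ cells, against 0.436, 0.376, 0.435, 91.1 and 93.4 TPM in the Sst+ cells. Ifi30, a lysosomal reductase of antigen-presenting cells, had 51.9, 94.0, 240.3, 89.4 and 149 TPM in the Pv+ cells and was listed at 0 in all 5 Sst+ cells. Of the 14 microglia genes, 13 had the higher mean in Pv+ cells and 1, P2ry12, named after its values were seen, in Sst+ cells. Their summed level was 4819 to 19046 TPM in Pv+ cells and 0.770 to 6062 TPM in Sst+ cells, 8 of the 14 were at least 2 higher in Pv+ cells and none in Sst+ cells, against 8.67% and 7.73% of all compared genes, and none was free of overlap. Divided by size factors, the sums were 4528 to 18796 in Pv+ cells and 0.647 to 4431 in Sst+ cells, without overlap. The median of the list was 2.24, and 1.44 without Sst+ cell 1. Tyrobp, an adaptor of microglial receptors, had 3808, 3399, 12266, 3142 and 3697 TPM in the Pv+ cells, against 0.306, 0.593, 0.610, 3148 and 1016 TPM in the Sst+ cells. Sst+ cells 4 and 5 were high and the other Sst+ cells were near 0. Ctss, a lysosomal protease, had 208, 774, 1476, 383 and 202 TPM in the Pv+ cells, against 0.127, 0.246, 0, 939 and 0.269 TPM in the Sst+ cells. Fcer1g, the shared chain of Fc receptors, had 151, 683, 1913, 729 and 769 TPM in the Pv+ cells, against 0.197, 0.893, 14.6, 440.2 and 475 TPM in the Sst+ cells. C1qc, a defining complement gene, had 0, 84.3, 143, 50.8 and 20.4 TPM in the Pv+ cells, against 0, 0, 0, 0.678 and 0 TPM in the Sst+ cells. The part of microglial RNA in Cd52, Ifi30 or any other difference was not tested.

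On the Sst+ side, Npy is given with the peptides below. Synpr, a membrane protein of synaptic vesicles, had 0.0369, 0.0164, 0, 0.0133 and 0.0623 TPM in the Pv+ cells, against 312, 423, 116, 241 and 375 TPM in the Sst+ cells. Reln, the secreted protein reelin, had 0.00779, 0, 0, 0.00562 and 0.0131 TPM in the Pv+ cells, against 115, 89.4, 62.3, 118 and 86.6 TPM in the Sst+ cells. Both were below 0.1 TPM in every Pv+ cell. Gpr151, an orphan receptor, had 0.0946, 0, 0, 0 and 0 TPM in the Pv+ cells, against 108, 55.7, 348, 499 and 136 TPM in the Sst+ cells, and Zcchc12, a transcriptional co-activator, had 0.0678, 0.0602, 0, 0.0489 and 0 TPM in the Pv+ cells, against 16.3, 393, 312, 190.5 and 508 TPM in the Sst+ cells. Serpina3n, a protease inhibitor, had 3.52, 2.53, 0, 0.973 and 3.98 TPM in the Pv+ cells, against 582, 124, 214, 519.6 and 955 TPM in the Sst+ cells. The 12 astrocyte genes described below summed to 4330, 798, 1188, 1539 and 4691 TPM in the same Sst+ cells. In Pv+ cells they summed to 395 to 1373 TPM. The part of glial RNA in Serpina3n was not tested. Tmem91 (8.87 to 602 TPM in Sst+ cells and no more than 3.02 TPM in any Pv+ cell) and Gm23849 (342 to 4154 TPM in Sst+ cells and no more than 157 TPM in any Pv+ cell) were also in the group, with Crhbp, Pnoc, Grik1, Adcy2, Gap43 and Scn3b, which are described with their families.

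**Figure D2:**
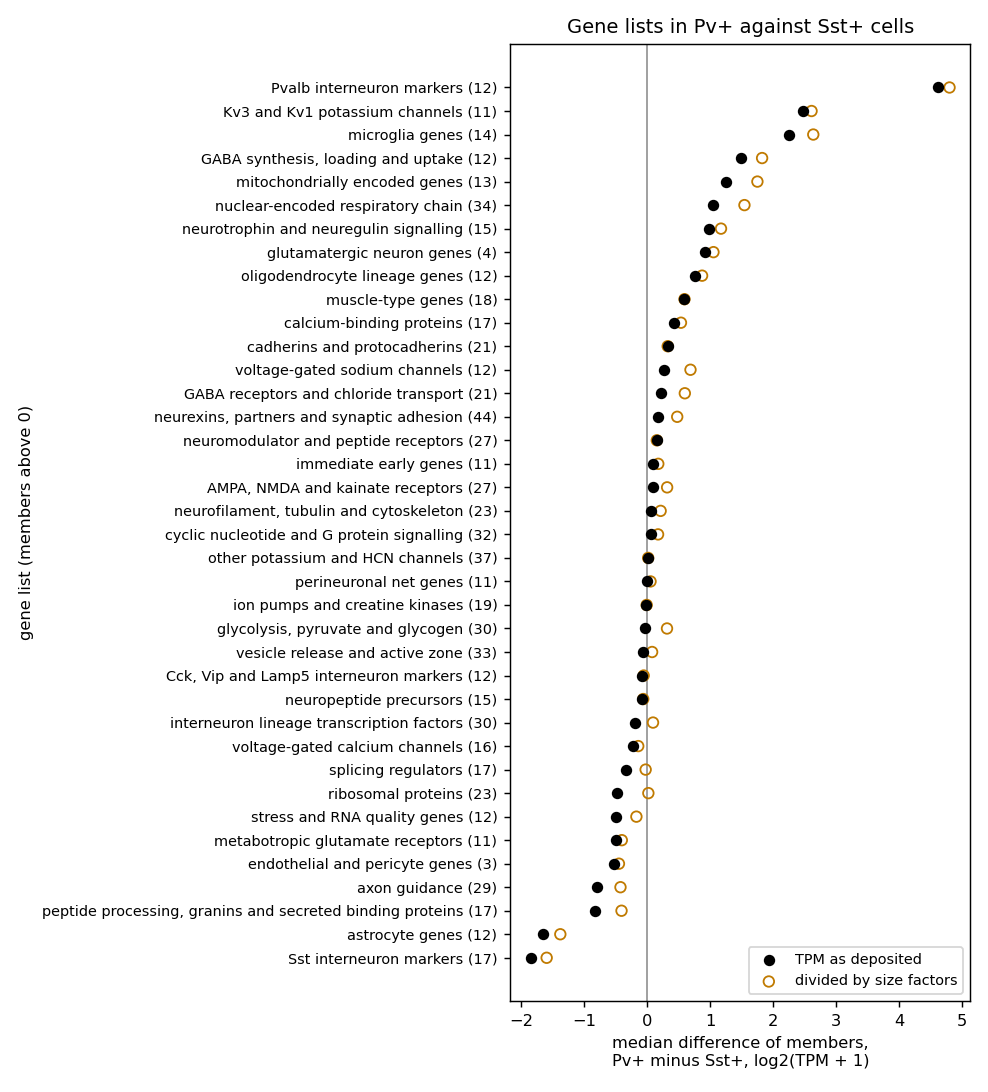
Median over the members of each gene list of the difference Pv+ minus Sst+ on log2(TPM + 1), with TPM as deposited (filled) and after division by size factors (open). With TPM as deposited, Pvalb markers and Kv3 and Kv1 channels lie furthest to the right, with size factors Pvalb markers and microglia genes (2.63, against 2.61 for Kv3 and Kv1 channels), and with both Sst markers and astrocyte genes furthest to the left, while most lists lie within 1 of 0.

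The peptide systems separated the types in both directions. The 20 neuropeptide precursors summed to 834 to 4856 TPM in Pv+ cells and 16735 to 129581 TPM in Sst+ cells, without overlap. Npy made up most of this in Sst+ cells, with 2297, 2.42, 3.36, 3.74 and 10.1 TPM in the Pv+ cells, against 68056, 8621, 61092, 125111 and 35025 TPM in the Sst+ cells. Pv+ cell 1 was the exception among Pv+ cells, and the next highest had 10.1 TPM. Pnoc, the precursor of nociceptin, had 0.430, 0, 0, 0.517 and 0.121 TPM in the Pv+ cells, against 269, 433, 578, 803 and 725 TPM in the Sst+ cells. Crhbp, which binds corticotropin-releasing hormone outside the cell, had 29.1, 0, 0.242, 114 and 0.232 TPM in the Pv+ cells, against 566, 1490.3, 1251, 2475 and 1879.5 TPM in the Sst+ cells. In the other direction Cck, the precursor of cholecystokinin, had 677, 585, 218, 191 and 657 TPM in the Pv+ cells and was listed at 0 in all 5 Sst+ cells. Pthlh has been given above. Calca, the precursor of calcitonin gene-related peptide, varied within Sst+ cells, with 2.09, 0.278, 1.38, 0.980 and 1.50 TPM in the Pv+ cells, against 286, 3879, 0.929, 862 and 281 TPM in the Sst+ cells. Sst+ cell 3 lay within the range of the Pv+ cells, so the groups overlapped. Over the 15 precursors above 0, the median difference was -0.08, which became 0.48 when Sst+ cell 5 was left out. Of the 12 compared genes, 3 were at least 2 higher in Pv+ cells and 4 in Sst+ cells, against 8.67% and 7.73% of all.

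The list of peptide processing enzymes, granins and secreted binding proteins summed to 4704 to 8266 TPM in Pv+ cells and 8411 to 26233 TPM in Sst+ cells. The sums did not overlap as deposited, but with size factors they did, at 5326 to 7766 in Pv+ cells and 5740 to 20050.4 in Sst+ cells. The median of the 17 genes was -0.83, -0.41 with size factors and -1.27 without Sst+ cell 1. Scg2, a granin of dense-core vesicles, had 497, 147, 89.2, 109 and 153 TPM in the Pv+ cells, against 733, 3073, 253, 1380.2 and 1037 TPM in the Sst+ cells, with overlap through Pv+ cell 1 and Sst+ cell 3. Scg3, another granin, had 78.4, 6.83, 60.6, 111 and 170.0 TPM in the Pv+ cells, against 279.7, 257, 336, 166 and 598 TPM in the Sst+ cells. Only the value of Pv+ cell 5 lay above the lowest Sst+ cell. Pcsk2, a convertase that cuts peptide precursors, went the other way, with 43.2, 11.1, 3.45, 4.78 and 22.3 TPM in the Pv+ cells, against 13.5, 2.21, 1.13, 1.08 and 0.0924 TPM in the Sst+ cells, and its ranges overlapped. Of the secreted growth factors in this list, Igf1 had 0, 0.138, 11.7, 8.91 and 4.70 TPM in the Pv+ cells, against 181, 91.4, 80.8, 62.2 and 118 TPM in the Sst+ cells without overlap, and Igfbp5, which binds insulin-like growth factors, had 0.0257, 0, 0, 1.73 and 0 TPM in the Pv+ cells, against 24.1, 43.2, 34.6, 0.793 and 235 TPM in the Sst+ cells with overlap through Sst+ cell 4.

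The promoters of Sst and Scg2 are shown because both hold the letters TGACGTCA, the cyclic AMP response element (CRE) known from the Sst promoter. The sequences are from RefSeq on GRCm38.p6 and run from 250 bases before the start of the gene to 50 bases after it, 5′ to 3′ on the gene's strand, with the element in capitals. The Sst window is chr16:23890795-23891094 and the Scg2 window chr1:79439977-79440276, both on the minus strand, and the element begins 48 bases before the start of Sst and 68 bases before that of Scg2.
Sst: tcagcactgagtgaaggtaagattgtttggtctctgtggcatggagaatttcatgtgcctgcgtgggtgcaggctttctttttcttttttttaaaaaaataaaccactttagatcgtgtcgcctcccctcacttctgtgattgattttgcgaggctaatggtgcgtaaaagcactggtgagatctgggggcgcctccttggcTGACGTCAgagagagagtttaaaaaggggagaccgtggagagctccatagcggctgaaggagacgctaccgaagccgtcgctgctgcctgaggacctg
Scg2: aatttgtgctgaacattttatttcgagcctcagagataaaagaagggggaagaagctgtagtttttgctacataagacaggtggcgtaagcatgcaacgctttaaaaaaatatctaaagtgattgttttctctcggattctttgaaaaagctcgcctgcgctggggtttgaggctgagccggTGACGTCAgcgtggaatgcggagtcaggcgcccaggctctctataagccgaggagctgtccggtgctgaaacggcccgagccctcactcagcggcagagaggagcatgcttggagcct
The element reads the same on both strands. Among the 27025 genes whose windows were searched, 549 (2.03%) held it. It was in 5 of the 31 peptide and granule genes with a window (16.1%), which were Sst, Scg2, Cartpt, Chgb and Pcsk1, the last 3 named for the element alone. Of the genes without overlap, windows matched for 154 of 255 higher in Pv+ and for 227 of 394 higher in Sst+ cells, and 4 (2.60%) and 15 (6.61%) of these held the element, against 3.86% of the 8094 compared genes with a window. These counts describe letters in a window and say nothing of binding.

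All 10 cells had the enzymes that make GABA, but in opposite proportions. Gad1, the isoform spread through the cytosol, had 267, 366, 415, 637 and 556.08 TPM in the Pv+ cells, against 27.0, 68.5, 191, 203 and 113 TPM in the Sst+ cells. Gad2, the isoform bound to vesicles at the terminal, had 72.9, 27.6, 37.2, 30.4 and 23.4 TPM in the Pv+ cells, against 349, 167, 316, 249 and 259 TPM in the Sst+ cells. Neither gene overlapped, with differences of 2.14 (SD over 5 cells 0.49 in Pv+ and 1.19 in Sst+) for Gad1 and -2.85 (SD over 5 cells 0.62 in Pv+ and 0.41 in Sst+) for Gad2. Within each cell, the log2 ratio of Gad1 to Gad2 was 1.86, 3.68, 3.44, 4.34 and 4.51 in the Pv+ cells and -3.65, -1.27, -0.72, -0.29 and -1.19 in the Sst+ cells. Pv+ cells thus had more Gad1 than Gad2 in every case, and Sst+ cells more Gad2 than Gad1 in every case. The whole list of 12 genes for GABA synthesis, loading and uptake had a median of 1.49. Of its 11 compared genes, 4 were at least 2 higher in Pv+ cells and 1 in Sst+ cells, against 8.67% and 7.73% of all. Abat, which breaks GABA down in mitochondria, had 214, 41.1, 117, 113 and 69.1 TPM in the Pv+ cells, against 0.0445, 0, 62.4, 65.0 and 60.4 TPM in the Sst+ cells. Its highest Sst+ value exceeded only Pv+ cell 2.

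**Figure D3:**
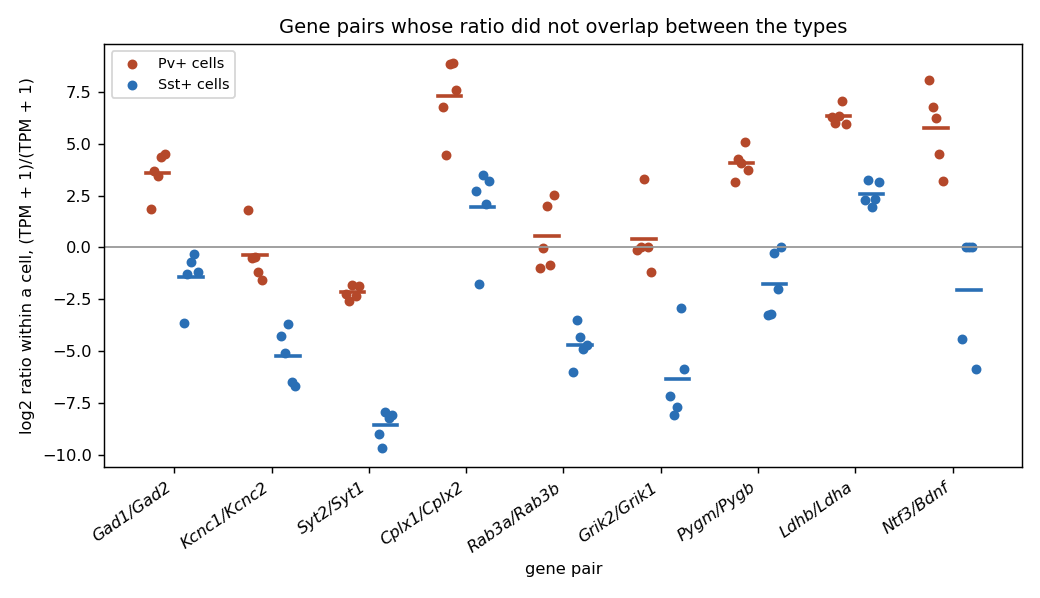
Log2 ratio of the TPM + 1 of 2 related genes within each cell, for the 9 pairs of 40 whose ratio did not overlap between types. Points are cells and bars are means of 5 cells. In every pair shown the ratio is higher in all Pv+ cells than in any Sst+ cell. For Gad1/Gad2 the ratio lies on either side of 0 in the types. A ratio of 0 marks a cell with both genes at 0 (Grik2/Grik1 in Pv+ cells, Pygm/Pygb and Ntf3/Bdnf in Sst+ cells).

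Ratios within a cell do not depend on scaling, apart from the pseudocount, and were taken for 40 pairs of related genes. No overlap was found in 9 pairs. The pairs were chosen with earlier results of these data known, so the number 9 of 40 is a description. Besides Gad1/Gad2, they were Kcnc1/Kcnc2, Syt2/Syt1, Cplx1/Cplx2, Rab3a/Rab3b, Grik2/Grik1, Pygm/Pygb, Ldhb/Ldha and Ntf3/Bdnf. Both genes were at 0 in part of the cells for Grik2/Grik1 (Pv+), Pygm/Pygb (Sst+) and Ntf3/Bdnf (Sst+). The ratio of 0 in such a cell comes from the pseudocount alone.

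Potassium channels of the Kv3 and Kv1 families, which let neurons repolarise quickly, had a list median of 2.48 over 11 genes above 0, against -0.04 over all compared genes. Of the 10 compared genes, 6 were at least 2 higher in Pv+ cells and 1 in Sst+ cells, against 8.67% and 7.73% of all. Kcnc1 (Kv3.1) had 94.2, 63.2, 147, 65.2 and 87.4 TPM in the Pv+ cells, against 3.19, 2.20, 12.7, 0.574 and 0.0934 TPM in the Sst+ cells. Its difference was 4.799 (SD over 5 cells 0.49 in Pv+ and 1.41 in Sst+) and the groups did not overlap. Kcnc2 (Kv3.2) had 26.6, 90.1, 199, 148 and 265 TPM in the Pv+ cells, against 78.8, 106, 175, 139 and 109 TPM in the Sst+ cells, a difference of -0.04 with wide overlap. The log2 ratio of Kcnc1 to Kcnc2 was 1.79, -0.51, -0.44, -1.17 and -1.59 in the Pv+ cells and -4.25, -5.07, -3.69, -6.47 and -6.66 in the Sst+ cells. Kcna1 (Kv1.1) had 90.9, 56.5, 219, 234 and 224 TPM in the Pv+ cells, against 12.8, 0.895, 65.1, 52.4 and 13.3 TPM in the Sst+ cells. Only Pv+ cell 2 fell below the highest Sst+ cell, and with size factors the groups did not overlap. Kcnab1, an auxiliary Kv1 subunit, had 76.8, 65.5, 66.7, 98.2 and 101 TPM in the Pv+ cells, against 0, 61.2, 48.0, 9.56 and 0 TPM in the Sst+ cells and did not overlap. In the further list of 37 potassium and HCN channel genes above 0 the median was 0.02. Of its 30 compared genes, 5 were at least 2 higher in Pv+ cells and none in Sst+ cells, against 8.67% and 7.73% of all. Kcnip2, a partner of Kv4 channels, was at 1.38, 12.5, 15.2, 13.9 and 3.83 TPM in Pv+ cells and listed at 0 in all Sst+ cells. Kcns3, a silent Kv2 partner, had 54.3, 31.8, 46.6, 8.82 and 72.6 TPM in the Pv+ cells, against 3.38, 0, 9.05, 16.6 and 0 TPM in the Sst+ cells.

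Sodium channel genes went in both directions, with a median of 0.27. Scn3b, the auxiliary subunit beta-3, had 0, 0.0247, 0, 0 and 0 TPM in the Pv+ cells, against 98.0, 51.0, 82.8, 23.1 and 45.1 TPM in the Sst+ cells without overlap. Scn2a1 (Nav1.2) had 34.4, 0, 4.15, 0.0241 and 3.52 TPM in the Pv+ cells, against 141, 44.2, 165, 80.5 and 8.07 TPM in the Sst+ cells, and Scn3a (Nav1.3) was listed at 0 in all 5 Pv+ cells with 11.2, 29.1, 8.49, 9.71 and 0 TPM in Sst+ cells. Fgf13, a factor that binds sodium channels, had 166, 137, 169, 93.5 and 196 TPM in the Pv+ cells, against 0.0858, 0.0278, 179, 41.0 and 125 TPM in the Sst+ cells, and Sst+ cells 1 and 2 were near 0. Among 16 calcium channel genes above 0, the median was -0.23. Cacna2d3, an alpha-2-delta subunit, differed by -2.60, with 1.55 to 114 TPM in Pv+ cells and 54.5 to 716 TPM in Sst+ cells.

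Genes of vesicle release had a lower sum in Pv+ cells, at 2614 to 3712 TPM, than in Sst+ cells, at 4126 to 7423 TPM. With size factors the sums met, at 2848 to 3488 in Pv+ cells and 3471 to 5260 in Sst+ cells. Of the 29 compared genes, 3 were at least 2 higher in Pv+ cells and 6 in Sst+ cells, against 8.67% and 7.73% of all. The list's median was -0.07. Syt2, the fast calcium sensor of release at many inhibitory terminals, had 27.2, 38.3, 65.5, 44.3 and 51.2 TPM in the Pv+ cells, against 0, 0.0146, 0, 0 and 0 TPM in the Sst+ cells. It was the release gene with the largest difference, 5.47 (SD over 5 cells 0.46 in Pv+ and 0.01 in Sst+), and its ratio to the related sensor Syt1 was -2.22, -2.60, -1.83, -2.33 and -1.87 in the Pv+ cells and -9.001, -9.67, -7.94, -8.20 and -8.08 in the Sst+ cells on the log2 scale. Syt1 itself had 131, 238, 235, 226 and 190.3 TPM in the Pv+ cells, against 511, 824, 244, 294 and 269.8 TPM in the Sst+ cells. Syt1 was therefore the more abundant of the pair in every cell of both types.

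Other release genes were higher in Sst+ cells. Rab3b, a small GTPase of synaptic vesicles, had 422, 179, 66.7, 616 and 24.5 TPM in the Pv+ cells, against 1478, 926, 2797, 3590.5 and 2749.7 TPM in the Sst+ cells without overlap. Rab3a, its relative, had 212, 178, 270.1, 342 and 146 TPM in the Pv+ cells, against 22.0, 80.3, 138, 119 and 106 TPM in the Sst+ cells. Cplx2, a complexin that holds the release machinery ready, had 6.33, 24.4, 0.386, 0.272 and 1.93 TPM in the Pv+ cells, against 24.7, 81.0, 58.7, 45.8 and 61.8 TPM in the Sst+ cells, and its difference of -3.71 was free of overlap only as deposited, not with size factors. The other complexin, Cplx1, had 811, 559.9, 632, 599.8 and 573 TPM in the Pv+ cells, against 167, 22.8, 674, 199.5 and 573 TPM in the Sst+ cells. The ratio Cplx1 to Cplx2 did not overlap, although both Cplx1 ranges did. Erc2, a scaffold of the active zone, had 0, 0.970, 4.31, 0.0183 and 26.9 TPM in the Pv+ cells, against 132, 45.1, 86.9, 79.8 and 40.9 TPM in the Sst+ cells, again with overlap under size factors. Snap25, a core protein of vesicle fusion, had 326, 407, 518, 666 and 472 TPM in the Pv+ cells, against 773, 507, 1409.6, 1469.8 and 2093 TPM in the Sst+ cells.

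The promoter of Syt2 is shown with that of Atp5g3, a subunit of ATP synthase, because each was higher in Pv+ cells without overlap and holds the element of estrogen-related receptors, TCAAGGTCA or TGACCTTGA on the other strand. Esrrg, which encodes such a receptor, had 28.9, 7.87, 27.8, 22.8 and 26.7 TPM in the Pv+ cells, against 0, 0, 0, 0 and 0.0196 TPM in the Sst+ cells. The Syt2 window is chr1:134646362-134646661 on the plus strand, 1 of 2 windows of this gene, and the Atp5g3 window chr2:73911277-73911576 on the minus strand. The element begins 167 bases before the start of Syt2 and 52 bases before that of Atp5g3. Source, length and direction are as for Sst.
Syt2: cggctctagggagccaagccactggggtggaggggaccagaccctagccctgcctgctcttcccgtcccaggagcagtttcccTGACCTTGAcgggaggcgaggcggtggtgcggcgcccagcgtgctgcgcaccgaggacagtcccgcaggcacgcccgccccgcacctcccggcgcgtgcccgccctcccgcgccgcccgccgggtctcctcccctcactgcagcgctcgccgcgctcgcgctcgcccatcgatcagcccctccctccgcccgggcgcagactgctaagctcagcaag
Atp5g3: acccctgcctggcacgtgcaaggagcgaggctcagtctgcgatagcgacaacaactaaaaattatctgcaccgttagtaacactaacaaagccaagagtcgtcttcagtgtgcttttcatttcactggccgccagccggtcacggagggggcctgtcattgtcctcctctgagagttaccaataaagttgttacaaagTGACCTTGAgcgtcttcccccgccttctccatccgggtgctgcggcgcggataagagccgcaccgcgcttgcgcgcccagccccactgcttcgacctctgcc
Either form was in 126 of 27025 genes (0.466%), in 2 of the 154 genes higher in Pv+ without overlap (1.30%), in 1 of 227 higher in Sst+ without overlap (0.441%), which was Sdhd, a complex II subunit outside the respiratory chain list, and in 1 of 23 respiratory chain genes (4.35%). Atp5g3, chosen here after its values were seen, had 775, 731, 768, 1097 and 1056 TPM in the Pv+ cells, against 115, 203, 227, 200.4 and 184 TPM in the Sst+ cells. Among the 8094 compared genes with a window, 29 (0.358%) held either form of the element. With so few matches these shares are a description only, and they say nothing of binding. An effect of Esrrg on Syt2 or Atp5g3 was not tested.

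Glutamate receptors differed by member. The 27 ionotropic receptor and partner genes above 0 had a median of 0.09. Of 23 compared genes, none was at least 2 higher in Pv+ cells and 4 in Sst+ cells, against 8.67% and 7.73% of all. Grik1, the kainate receptor subunit GluK1, had 1.33, 0, 0, 0 and 1.58 TPM in the Pv+ cells, against 141, 342, 204, 65.4 and 57.8 TPM in the Sst+ cells. Grik3 (GluK3) had 0, 0, 1.88, 0 and 4.45 TPM in the Pv+ cells, against 33.9, 8.13, 17.3, 15.4 and 5.09 TPM in the Sst+ cells, without overlap as deposited and with overlap under size factors. Neto1, which accompanies kainate receptors, had 0, 0, 59.8, 75.9 and 45.1 TPM in the Pv+ cells, against 49.0, 426, 149, 216 and 143 TPM in the Sst+ cells. Pv+ cells 1 and 2 were at 0 for Neto1, and the others lay near the lowest Sst+ cell. Grin3a, an NMDA receptor subunit, had 0.906, 0, 0, 0.00909 and 0 TPM in the Pv+ cells, against 179, 0.200, 13.1, 56.0 and 38.9 TPM in the Sst+ cells. Cacng2 (stargazin), which carries AMPA receptors to the membrane, went the other way, with 82.4, 159, 97.4, 93.7 and 107 TPM in the Pv+ cells, against 16.6, 62.8, 33.3, 37.2 and 36.6 TPM in the Sst+ cells. Its difference was 1.58 and the groups did not overlap.

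Of the metabotropic receptors, Grm7 was listed at 0 in all 5 Pv+ cells and had 24.3, 0.284, 1.58, 6.90 and 14.2 TPM in Sst+ cells. Grm5 was found in both types, with 0.407 to 132 TPM in Pv+ cells and 6.94 to 149 TPM in Sst+ cells. Elfn1, an adhesion protein of somatostatin cells that binds Grm7 across the synapse, was low, with up to 0.614 TPM in Pv+ cells and 0 to 14.8 TPM in Sst+ cells.

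Of 21 genes of GABA receptors and chloride transport above 0, 12 had the higher mean in Pv+ cells and 9 in Sst+ cells. The median was 0.22. Of the 19 compared genes, 4 were at least 2 higher in Pv+ cells and 1 in Sst+ cells, against 8.67% and 7.73% of all. Gabra4 was at 2.59, 15.1, 5.86, 4.82 and 17.2 TPM in Pv+ cells and Gabrd at 4.51, 11.6, 48.9, 0.233 and 101 TPM, and both were listed at 0 in all 5 Sst+ cells. These encode the subunits alpha-4 and delta, which are found together in receptors outside the synapse. Gabrg3 had 27.5, 5.70, 7.28, 10.3 and 23.6 TPM in the Pv+ cells, against 0, 0, 0, 0.00998 and 0 TPM in the Sst+ cells. Among receptors for modulators, Cnr1, the cannabinoid receptor CB1, had 0.0719, 0.0639, 0.105, 0.0692 and 0.121 TPM in the Pv+ cells, against 0.455, 203, 10.8, 87.7 and 76.8 TPM in the Sst+ cells, and Chrm2, a muscarinic receptor, had 1.84, 32.3, 19.2, 2.21 and 43.0 TPM in the Pv+ cells, against 0, 0, 0, 0.531 and 0 TPM in the Sst+ cells. Neither overlapped. Chrnb2, a nicotinic subunit, had 11.5, 26.1, 35.7, 1.45 and 25.4 TPM in the Pv+ cells, against 0, 3.77, 0.0319, 0 and 0 TPM in the Sst+ cells, and Drd1a, the dopamine D1 receptor, had 68.7, 65.3, 67.9, 15.9 and 62.1 TPM in the Pv+ cells, against 0, 0, 78.5, 17.8 and 0 TPM in the Sst+ cells. In both, part of the Sst+ cells were at 0.

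The neurexins named here overlapped between the types. Nrxn3 had 144, 70.7, 101, 75.3 and 99.6 TPM in the Pv+ cells, against 83.6, 92.2, 249, 144 and 32.6 TPM in the Sst+ cells, a difference of -0.05, and Nrxn2 had 0, 2.13, 3.401, 1.77 and 1.03 TPM in the Pv+ cells, against 17.2, 5.39, 3.01, 2.28 and 1.42 TPM in the Sst+ cells, a difference of -1.12. Slc17a8, which encodes VGT3, had 0.0327, 0, 0.0288, 0.0236 and 0 TPM in the Pv+ cells, against 0, 0.0236, 0, 0 and 0.0516 TPM in the Sst+ cells. Of the 42 compared genes of synaptic adhesion, 7 were at least 2 higher in Pv+ cells and 6 in Sst+ cells, against 8.67% and 7.73% of all. The median over the 44 genes above 0 was 0.17. Clstn2, a calsyntenin, had 31.4, 2.19, 22.0, 8.31 and 7.52 TPM in the Pv+ cells, against 0, 0, 0, 0.0209 and 0 TPM in the Sst+ cells, and Cntnap4, a Caspr relative found in interneurons, had 29.0, 12.1, 71.7, 43.9 and 75.0 TPM in the Pv+ cells, against 27.0, 10.3, 0, 0 and 0 TPM in the Sst+ cells. Lphn2, the adhesion receptor latrophilin-2, had 0, 0, 5.20, 0 and 2.78 TPM in the Pv+ cells, against 2.63, 74.8, 43.4, 33.4 and 45.2 TPM in the Sst+ cells. Only Sst+ cell 1 lay within the Pv+ range.

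Cadherins and protocadherins went in both directions. The 21 genes had a median of 0.33. Of the 18 compared genes, 4 were higher in Sst+ cells without overlap and none in Pv+ cells, against 3.29% and 2.13% of all. At least 2 higher in Sst+ cells were 6 and in Pv+ cells 5, against 7.73% and 8.67% of all. Cdh13, a cadherin without a cytoplasmic domain, had 10.9, 9.18, 9.002, 50.5 and 0.0702 TPM in the Pv+ cells, against 179, 152, 285, 223 and 218 TPM in the Sst+ cells. Cdh8, a classical cadherin, had 0, 0, 0, 2.84 and 0.0168 TPM in the Pv+ cells, against 54.2, 14.0, 77.8, 66.3 and 116 TPM in the Sst+ cells. For both genes every Sst+ cell lay above every Pv+ cell, with either scaling. Cdh10 had 0, 0, 0, 1.83 and 0 TPM in the Pv+ cells, against 75.0, 10.1, 58.4, 8.19 and 4.81 TPM in the Sst+ cells. Cdh7, counted among the 4, had 0, 0, 0, 0.0111 and 0 TPM in the Pv+ cells, against 83.6, 0.0111, 47.2, 16.0 and 16.6 TPM in the Sst+ cells. Its lowest Sst+ and highest Pv+ values were the same to 3 digits, so it is in effect a tie, and with size factors it overlapped. Cdh9 varied more within Sst+ cells, with 0.0480, 0, 32.8, 14.0 and 13.3 TPM in the Pv+ cells, against 1294, 1.84, 449, 125 and 99.2 TPM in the Sst+ cells. The protocadherin Pcdh8 was higher in Pv+ cells except for Sst+ cell 2, with 35.03, 70.8, 55.3, 17.6 and 9.68 TPM in the Pv+ cells, against 0.0380, 129.5, 0, 0 and 0 TPM in the Sst+ cells.

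Axon guidance genes had a median of -0.80 over 29 genes (-0.42 with size factors, -0.39 without Pv+ cell 1 and -0.49 without Sst+ cell 5). Of the 26 compared genes, 5 were at least 2 higher in Sst+ cells and none in Pv+ cells, against 7.73% and 8.67% of all. Robo2, a receptor for Slit proteins, had 3.44, 0.523, 0.00822, 0.108 and 0.0158 TPM in the Pv+ cells, against 29.8, 23.1, 61.4, 13.1 and 11.3 TPM in the Sst+ cells without overlap, and Robo1, its relative, had 0.0204, 11.0, 11.4, 0.973 and 2.91 TPM in the Pv+ cells, against 14.9, 148, 37.0, 25.4 and 11.3 TPM in the Sst+ cells with the ranges meeting between Pv+ cell 3 and Sst+ cell 5. Plxnc1, a semaphorin receptor, had 0, 2.00, 0, 0.0712 and 0 TPM in the Pv+ cells, against 33.5, 0, 68.1, 15.5 and 36.3 TPM in the Sst+ cells.

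Genes of neurotrophin, neuregulin and related growth factor signalling differed by member. Ntf3, which encodes neurotrophin-3, had 272, 108, 75.3, 21.4 and 8.13 TPM in Pv+ cells and was listed at 0 in all 5 Sst+ cells. Bdnf, a related neurotrophin, was listed at 0 in all 5 Pv+ cells and had 20.2, 0, 0, 0 and 56.9 TPM in the Sst+ cells. Erbb4, the neuregulin receptor, had 26.5, 31.1, 29.4, 36.6 and 57.7 TPM in the Pv+ cells, against 0, 11.5, 0, 0 and 0 TPM in the Sst+ cells, and its Sst+ values were 0 except in cell 2. Ntrk3, the receptor for neurotrophin-3, had 70.4, 15.6, 62.0, 26.6 and 44.1 TPM in the Pv+ cells, against 0, 33.2, 0, 5.65 and 0 TPM in the Sst+ cells. Here Sst+ cell 2 lay within the Pv+ range. Of the 15 genes above 0, 10 had the higher mean in Pv+ cells, and the median was 0.99, or 0.49 without Sst+ cell 2. Among the 13 compared genes, 5 were at least 2 higher in Pv+ cells and 2 in Sst+ cells, against 8.67% and 7.73% of all.

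Transcription factors gave a median of -0.20 (0.09 with size factors), so the list as a whole had no steady direction, while single members were far apart. Mef2c, a factor of activity-dependent transcription, had 508, 348, 487, 305 and 430.1 TPM in the Pv+ cells, against 108, 39.2, 122, 128 and 9.56 TPM in the Sst+ cells without overlap. Myt1l, a neuronal repressor of non-neuronal genes, had 7.13, 4.30, 16.1, 15.9 and 0.191 TPM in the Pv+ cells, against 159, 177, 194, 31.4 and 30.1 TPM in the Sst+ cells without overlap in the opposite direction. Bcl11a was listed at 0 in all 5 Pv+ cells and had 13.5, 0.186, 5.81, 0.343 and 19.3 TPM in Sst+ cells.

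Genes of the perineuronal net, the matrix that wraps many parvalbumin cells, had a median difference of 0.00 over 11 genes. Hapln4, a link protein, was at 38.1, 17.9, 119, 55.2 and 28.8 TPM in Pv+ cells and listed at 0 in all Sst+ cells. Acan (aggrecan) was at 0, 0.914, 12.1, 6.49 and 14.7 TPM in Pv+ cells and also listed at 0 in all Sst+ cells. Adamts15, a protease that cuts aggrecan, had 49.0, 2.36, 15.1, 0.772 and 25.2 TPM in the Pv+ cells, against 0, 0, 0, 0.0201 and 0 TPM in the Sst+ cells. Ncan (neurocan) was higher in Sst+ cells, with 0.172, 0.0381, 0.302, 1.98 and 6.02 TPM in the Pv+ cells, against 25.4, 72.0, 13.4, 1.34 and 39.6 TPM in the Sst+ cells, and overlapped.

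Of the 23 neurofilament, tubulin and other cytoskeleton genes, 12 had the higher mean in Pv+ cells and 11 in Sst+ cells, with a median of 0.06. Among the 22 compared genes, 4 were at least 2 higher in Pv+ cells and 5 in Sst+ cells, against 8.67% and 7.73% of all. Nefl, the light neurofilament, had 207, 102, 566, 375 and 430.2 TPM in the Pv+ cells, against 0.153, 0.0660, 0.153, 79.8 and 69.1 TPM in the Sst+ cells, and Nefm, the medium one, had 21.9, 197, 299.6, 140.5 and 211 TPM in the Pv+ cells, against 3.55, 0, 5.50, 32.0 and 47.2 TPM in the Sst+ cells. Ina, a further neuronal filament, had 339, 467, 243, 318 and 264 TPM in the Pv+ cells, against 139, 0.0344, 115, 36.6 and 216 TPM in the Sst+ cells. Nefl and Ina were free of overlap, and Nefm was not. In the other direction Gap43, a protein of growing axons, had 309.6, 21.9, 0.178, 32.3 and 16.0 TPM in the Pv+ cells, against 809.6, 901, 2049.8, 1369 and 1859.5 TPM in the Sst+ cells. Tuba1a, the tubulin of young neurons, had 1309, 1109.7, 842, 748 and 1244 TPM in the Pv+ cells, against 5885, 6633, 6677, 6929 and 7097 TPM in the Sst+ cells. Its difference was -2.69 (SD over 5 cells 0.35 in Pv+ and 0.10 in Sst+), and the lowest Sst+ cell lay far above the highest Pv+ cell. Stmn1, which destabilises microtubules, had 74.1, 66.4, 84.8, 124 and 22.0 TPM in the Pv+ cells, against 994, 1846, 369, 667 and 733 TPM in the Sst+ cells, and Tubb2b had 0, 0.214, 3.04, 2.67 and 0.136 TPM in the Pv+ cells, against 41.5, 72.7, 22.1, 24.2 and 28.4 TPM in the Sst+ cells. Gap43, Tuba1a, Stmn1 and Tubb2b were free of overlap, and the summed list was 4780 to 6214 TPM in Pv+ cells and 11102 to 15178 TPM in Sst+ cells. Tubulin genes resemble each other, and how reads that fit several genes were counted is not given in the sources used here.

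**Figure D4:**
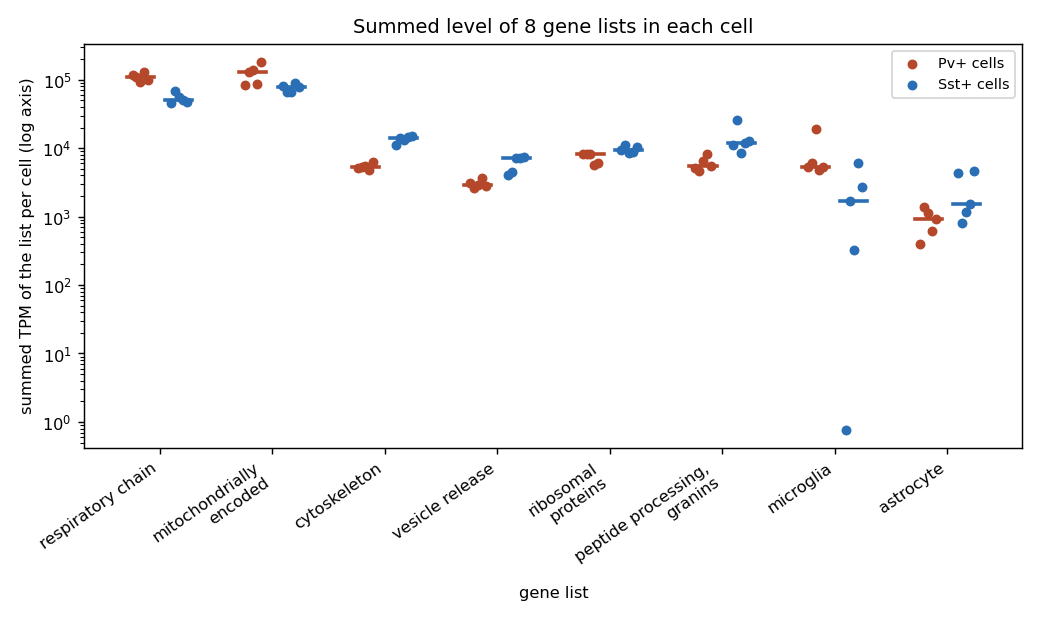
Summed TPM of 8 gene lists in each cell, on a log axis, with a bar at the median of each type. Respiratory chain sums lie higher in all Pv+ cells and cytoskeleton sums in all Sst+ cells, also with size factors, while release, ribosomal and peptide processing sums lie higher in all Sst+ cells only as deposited, and the microglia sum runs from 0.770 to 6062 TPM among Sst+ cells.

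Genes of the respiratory chain were mostly higher in Pv+ cells, 29 of 34 by their means and 5 lower. All 34 nuclear-encoded members were compared, and the median difference was 1.04 (1.54 with size factors). Of these, 8 were at least 2 higher in Pv+ cells and none in Sst+ cells, against 8.67% and 7.73% of all compared genes. The groups did not overlap for 12 of the 34, all higher in Pv+ cells, against a background of 2.13%. The summed level was 91876 to 129646 TPM in Pv+ cells and 45891 to 68318 TPM in Sst+ cells. Ndufa4, the most abundant member, had 38484, 34460.0, 30834, 43224 and 29790.2 TPM in the Pv+ cells, against 12922, 23867, 18158, 16947 and 12065 TPM in the Sst+ cells. Slc25a4, which exchanges ATP and ADP across the inner membrane, had 1258, 1479.9, 1419, 907 and 1298 TPM in the Pv+ cells, against 21.6, 578, 435, 399.6 and 386 TPM in the Sst+ cells. Neither gene overlapped, and their differences were 1.10 (SD over 5 cells 0.22 in Pv+ and 0.40 in Sst+) and 2.36 (SD over 5 cells 0.28 in Pv+ and 1.94 in Sst+). Ndufb9 of complex I had 1888, 1799, 1068, 2102 and 1756 TPM in the Pv+ cells, against 22.3, 1766, 539.8, 421 and 207 TPM in the Sst+ cells, overlapping only through Sst+ cell 2. Cox6a2, a muscle-type subunit of complex IV, had 278, 482, 94.1, 614 and 191 TPM in the Pv+ cells, against 170.4, 0.1695, 0.261, 72.4 and 0.185 TPM in the Sst+ cells, and Sst+ cell 1 lay within the Pv+ range. Cox6b1, also of complex IV, had a smaller difference, 0.62 as deposited and 1.12 with size factors. Its values were 15689, 15933, 12411, 18416 and 14217 TPM in the Pv+ cells, against 9020.5, 13888, 9844, 8734 and 8819 TPM in the Sst+ cells. Only Sst+ cell 2 lay within the Pv+ range, and with size factors the groups did not overlap.

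Genes encoded by the mitochondrial genome were also higher in Pv+ cells, with a median of 1.25 over 13 genes. Of these, 6 were higher in Pv+ cells without overlap, against 2.13% of all compared genes. The summed level of the 13 genes overlapped as deposited, at 84582 to 179911 TPM in Pv+ cells and 65252 to 90098 TPM in Sst+ cells. With size factors the sums did not overlap, at 82755 to 188188 in Pv+ cells and 45294 to 67590 in Sst+ cells. mt-Nd2 had 7223, 16573, 11773, 7568 and 16345 TPM in the Pv+ cells, against 4683, 3719, 3891, 4432 and 5867 TPM in the Sst+ cells, and mt-Nd3 had 147, 127, 177, 77.6 and 122 TPM in the Pv+ cells, against 29.2, 9.62, 17.8, 27.7 and 9.10 TPM in the Sst+ cells. mt-Nd1 had a smaller difference, 0.52, with 22193 to 43728 TPM in Pv+ cells and 18079.5 to 29624 TPM in Sst+ cells, which overlapped as deposited. With size factors its difference was 1.02 and the groups did not overlap. All genes named mt- made up 11.2% to 24.7% of the TPM of Pv+ cells and 7.67% to 10.1% of that of Sst+ cells.

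Glycolysis genes were split. Ldha, the lactate dehydrogenase subunit typical of lactate-producing tissue, had 32.0, 52.2, 56.0, 27.4 and 37.6 TPM in the Pv+ cells, against 372, 255, 493, 533 and 332 TPM in the Sst+ cells. Ldhb, the subunit typical of lactate-using tissue, had 2610.5, 3390.3, 4569.9, 3792 and 2369.9 TPM in the Pv+ cells, against 1803, 2443, 1896, 2655 and 2926 TPM in the Sst+ cells. The log2 ratio of Ldhb to Ldha was 6.31, 6.00, 6.33, 7.06 and 5.94 in the Pv+ cells and 2.27, 3.25, 1.94, 2.31 and 3.14 in the Sst+ cells, so that Ldhb had the higher TPM in all 10 cells. Gapdh, an enzyme of glycolysis, had 40.2, 19.1, 57.3, 55.0 and 35.1 TPM in the Pv+ cells, against 77.4, 114, 171, 166 and 197 TPM in the Sst+ cells, and Tpi1 had 441, 528, 703, 843 and 429 TPM in the Pv+ cells, against 1100.2, 1109.6, 1313, 1705 and 2011 TPM in the Sst+ cells, both higher in Sst+ cells without overlap with either scaling. Eno1 was higher in Sst+ cells without overlap only as deposited, with 34.98, 49.0, 72.5, 77.5 and 49.98 TPM in the Pv+ cells, against 95.4, 217, 79.7, 262 and 275 TPM in the Sst+ cells. Hk2, a hexokinase of muscle and other insulin-responsive tissue, had 3.68, 16.7, 23.8, 9.40 and 2.75 TPM in the Pv+ cells, against 0, 0, 0, 2.02 and 0 TPM in the Sst+ cells. Pygb, the brain form of glycogen phosphorylase, had 0, 2.99, 4.38, 1.39 and 10.9 TPM in the Pv+ cells, against 8.46, 8.35, 0.214, 3.05 and 0 TPM in the Sst+ cells. The median of the 30 genes was -0.04 (0.31 with size factors). As for tubulins, how reads that fit several genes were counted is not given in the sources used here.

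The list of ribosomal protein and elongation factor genes had a direction that rested on the scaling. Their median was -0.48 as deposited and 0.02 with size factors. As deposited, 6 of 23 were higher in Sst+ cells without overlap, against 3.29% of all compared genes. The elongation factor Eef1a1 had 78.0, 87.6, 151, 77.1 and 82.8 TPM in the Pv+ cells, against 1058, 635, 646, 636 and 834 TPM in the Sst+ cells, a difference of -3.004 (SD over 5 cells 0.40 in Pv+ and 0.33 in Sst+) that was free of overlap with either scaling. Rpl4 had 381, 143, 291, 256 and 243 TPM in the Pv+ cells, against 938, 882, 876, 674 and 755 TPM in the Sst+ cells and was also free of overlap with either scaling. Ribosomal protein genes and Eef1a1 have many near-identical copies in the genome, so their values are uncertain in the way given for tubulins.

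Signalling genes of cyclic nucleotides and G proteins had a median of 0.06. Of the 24 compared genes, 7 were at least 2 higher in Pv+ cells and 5 in Sst+ cells, against 8.67% and 7.73% of all. Adcy2, an adenylyl cyclase, had 19.9, 1.04, 0.0322, 14.99 and 0 TPM in the Pv+ cells, against 288, 302, 293, 159 and 329.8 TPM in the Sst+ cells. Gucy1a3, a subunit of the receptor for nitric oxide, had 10.1, 53.0, 42.3, 40.5 and 56.9 TPM in the Pv+ cells, against 0.0247, 13.6, 0, 0 and 0 TPM in the Sst+ cells. Only Sst+ cell 2 lay within its Pv+ range. Rgs10, a regulator of G protein signalling, had 32.3, 374, 229, 284 and 94.0 TPM in the Pv+ cells, against 0, 233, 106, 1.60 and 2.92 TPM in the Sst+ cells, with overlap through Sst+ cells 2 and 3. Rgs10 is also known from microglia, whose genes are described above.

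Glial and variable genes set single cells apart. The 12 astrocyte genes had a median of -1.65, which was -0.63 without Sst+ cell 1 and -1.04 without Sst+ cell 5, with summed levels of 395 to 1373 TPM in Pv+ cells and 798 to 4691 TPM in Sst+ cells. Clu, a secreted chaperone, had 63.9, 41.0, 68.5, 93.5 and 72.7 TPM in the Pv+ cells, against 1049, 406, 804, 1290.4 and 2751 TPM in the Sst+ cells without overlap. The water channel Aqp4 had 0, 0.0270, 0, 0.0658 and 6.23 TPM in the Pv+ cells, against 668, 0, 50.9, 0 and 57.9 TPM in the Sst+ cells, and the glutamate transporter Slc1a3 had 0, 0, 0.0795, 5.62 and 3.31 TPM in the Pv+ cells, against 220.0, 0, 0.967, 0.670 and 198 TPM in the Sst+ cells. Sst+ cells 1 and 5 held the 2 highest values of both. S100b, a calcium-binding protein found in astrocytes, had 132, 877, 774, 19.5 and 527 TPM in the Pv+ cells, against 936, 1.58, 0, 50.6 and 179 TPM in the Sst+ cells. The part of glial RNA in Clu was not tested. Within Sst+ cells, Calb2 (calretinin) had 42.6, 0, 136, 0.2498 and 33.2 TPM and was listed at 0 in all Pv+ cells, and Ndnf had 0, 0, 52.7, 32.8 and 51.8 TPM and was likewise at 0 in Pv+ cells. Akr1c18, a steroid-converting enzyme placed on the Pvalb marker list, went against its list, with 0.256, 15.6, 0, 1868 and 64.9 TPM in the Pv+ cells, against 2015, 75.2, 1314, 364 and 6116 TPM in the Sst+ cells.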

How the data were processed

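RNA was measured in cytosol drawn by patch pipette from single interneurons of organotypic hippocampal slice cultures. Libraries were made by the authors with the SMART-Seq HT and Nextera XT kits and sequenced as paired reads. Per the labels and the study's methods, reads were demultiplexed with bcl2fastq, filtered and trimmed, aligned to GRCm38 with HISAT2 2.1.0 and counted per Ensembl gene with HTSeq, and the authors computed the deposited TPM from gene lengths. Replicates were not pooled, and no scaling between cells was applied. The treatment of reads that fit several genes and of strand is not given in the sources used here.

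From the deposited TPM table, the columns of the 5 Pv+ and 5 Sst+ cells were used in Python 3.11.15 (pandas 2.3.3, numpy 2.4.6). Values were taken as log2(TPM + 1). Genes that averaged 1 TPM or more over the 10 cells were compared, by the difference of means (2 or more counted as apart, 4-fold) and by whether the 5 cells of one type all lay above the 5 of the other. The scripts were tested on simulated data with known differences. Depth per cell was estimated from the steps of low TPM values, of which 72.0% to 76.3% came out as whole reads within 0.01, so it is approximate, and no interval was built on it. No animal or culture is named for a cell, so each type counted as 1 sample, and neither tests nor standard errors were computed.

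Named genes were Pvalb, Sst, Slc17a8, Nrxn2 and Nrxn3, the 15 genes furthest apart in each direction by the criteria in the text, in each of 38 gene lists the 6 members furthest apart and the 2 most abundant, and both members of pairs whose ratio did not overlap. A selection of these is described, and a few others that the rule names are not reported here. Genes, lists and pairs were chosen with earlier results of these data known. Members at 0 in all 10 cells were left out of list medians. Symbols that stand for several genes were read as the most abundant one. Alternatives were a pseudocount of 0.1 TPM, median-of-ratios size factors, TPM rescaled without mitochondrial and the 10 most abundant genes, medians over cells, other filters and leaving out each cell. Promoter windows came from RefSeq.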

Additional observations from a re-analysis of the deposited data

Results flagged for a closer look

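In each type of 5 cells, the cell at either end of the range was set against its neighbour for the genes named here and for the summary measures per cell. In 273 groups of 5 cells, 45 had 1 cell far from the others. Chance alone flags about 1 in 20 groups of continuous values, a rate that does not apply here, since a gene at 0 in 4 cells and above 0 in the fifth is always of this kind and the genes were chosen for their differences. Sst+ cell 4 was the odd cell in 10 groups, Sst+ cell 2 in 9 and Pv+ cell 1 in 7.

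Sst+ cell 4 had 10191 genes above 0, the most among Sst+ cells, against a median of 7849 in that type. Pv+ cell 1 was highest of its type for Gpr151 (0.0946 TPM) and Grin3a (0.906 TPM), all with a type median of 0. Pv+ cell 2 was highest of its type for Scn3b (0.0247 TPM) and Plxnc1 (2.00 TPM), all with a type median of 0. Pv+ cell 4 was highest of its type for Igfbp5 (1.73 TPM), Cdh8 (2.84 TPM), Cdh10 (1.83 TPM), Cdh7 (0.0111 TPM) and Nptx2 (0.0437 TPM), all with a type median of 0. Pv+ cell 5 was highest of its type for Elfn1 (0.614 TPM), with a type median of 0. Pv+ cell 1 was highest of its type for Npy (2297 TPM, type median 3.74 TPM) and Robo2 (3.44 TPM, type median 0.108 TPM). Pv+ cell 2 was highest of its type for Olig1 (81.6 TPM, type median 0.302 TPM). Pv+ cell 3 was highest of its type for Tyrobp (12266 TPM, type median 3697 TPM) and Eef1a1 (151 TPM, type median 82.8 TPM). Pv+ cell 5 was highest of its type for Aqp4 (6.23 TPM, type median 0.0270 TPM). Pv+ cell 1 was lowest of its type for Pygm (8.02 TPM, type median 81.5 TPM), Mrps24 (34.04 TPM, type median 88.2 TPM) and Gucy1a3 (10.1 TPM, type median 42.3 TPM). Pv+ cell 2 was lowest of its type for Esrrg (7.87 TPM, type median 26.7 TPM). Pv+ cell 3 was lowest of its type for Ndufb9 (1068 TPM, type median 1799 TPM). Pv+ cell 4 was lowest of its type for Drd1a (15.9 TPM, type median 65.3 TPM). Sst+ cell 2 was highest of its type for Mustn1 (0.0948 TPM), Syt2 (0.0146 TPM), Chrnb2 (3.77 TPM), Pcdh8 (129.5 TPM), Erbb4 (11.5 TPM), Gucy1a3 (13.6 TPM) and Olig1 (0.929 TPM), all with a type median of 0. Sst+ cell 4 was highest of its type for C1qc (0.678 TPM), Gabrg3 (0.00998 TPM), Chrm2 (0.531 TPM), Clstn2 (0.0209 TPM), Adamts15 (0.0201 TPM) and Hk2 (2.02 TPM), all with a type median of 0. Sst+ cell 5 was highest of its type for Esrrg (0.0196 TPM), with a type median of 0. Sst+ cell 2 was highest of its type for Cox6b1 (13888 TPM, type median 9020.5 TPM). Sst+ cell 4 was highest of its type for Pvalb (55.1 TPM, type median 0.166 TPM) and Ctss (939 TPM, type median 0.246 TPM). Sst+ cell 1 was lowest of its type for Zcchc12 (16.3 TPM, type median 312 TPM), Lphn2 (2.63 TPM, type median 43.4 TPM) and Slc25a4 (21.6 TPM, type median 399.6 TPM). Sst+ cell 2 was lowest of its type for Nptx2 (0 TPM, type median 20.4 TPM). Sst+ cell 4 was lowest of its type for Adcy2 (159 TPM, type median 293 TPM).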

How the results depend on the processing

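No paired analysis was possible because the comparison comes from no test and a cell's number pairs it with no cell of the other type. A pseudocount of 0.1 TPM gave 2688 genes at least 2 higher in Pv+ cells and 1735 in Sst+ cells, and medians over cells gave 1871 higher in Pv+ cells. A mean of at least 10 TPM gave 691 higher in Pv+ cells and 757 in Sst+ cells. Size factors gave 395 genes without overlap higher in Pv+ and 216 higher in Sst+ cells. Leaving out each cell gave 304 to 393 genes without overlap higher in Pv+ cells, the most without Pv+ cell 1. Higher in Sst+ cells there were 422 to 583. Taking out a cell can only keep or raise these counts, so nothing is read from their rise. This alternative and the rescaled TPM of those counts were chosen after seeing the data, as were list sums with size factors. The cause of the other shifts was not tested. Of 38 list medians, 8 moved by more than their spread between cells. With the pseudocount of 0.1 TPM they were -0.36 for Cck, Vip and Lamp5 markers, -1.14 for endothelial genes, -0.36 for neuropeptides, 0.59 for modulator receptors and -0.93 for metabotropic glutamate receptors. With size factors, endothelial genes gave -0.45 and ribosomal proteins 0.0184, and the rescaled TPM gave -0.61 for endothelial genes. Medians over cells gave 0 for the endothelial, modulator receptor and metabotropic lists. With members of at least 1 TPM alone, the medians were -4.81 for Sst markers, -2.43 for Cck, Vip and Lamp5 markers, -0.91 for endothelial genes, -0.86 for neuropeptides, 0.36 for modulator receptors, -1.29 for metabotropic receptors and 1.81 for muscle-type genes. Leaving out each cell gave -0.65 to 0 for endothelial genes, -0.20 to 0.48 for neuropeptides and 0 to 0.21 for modulator receptors. Of the named genes, 117 were at least 2 apart and none of these changed sign in any alternative, while 4 of the 25 others did. Many of the 117 were picked for large differences in these same data, so a kept sign is no support for them. Values of named genes moved by more than their spread between cells in 46 cases with the pseudocount of 0.1 TPM and in 7 with size factors. A threshold of 1 TPM in place of 0 gave a median of 7724 detected genes in Pv+ cells and 6106 in Sst+ cells. With 1 sample per type, the data cannot show how far any difference would hold in other animals.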

Other observations

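Immediate early genes, which neurons switch on with activity, did not separate the types as a list, with 11 of 18 above 0 and a median difference of 0.09. Nptx2, a secreted pentraxin of that list, had 0, 0, 0, 0.0437 and 0 TPM in the Pv+ cells, against 19.7, 0, 32.6, 20.4 and 21.0 TPM in the Sst+ cells. Every Sst+ cell except cell 2 lay above every Pv+ cell. Btg2, a growth-arrest gene, had 0, 0, 15.5, 5.86 and 0.0475 TPM in the Pv+ cells, against 0.943, 2.11, 9.21, 42.6 and 101 TPM in the Sst+ cells, and Dusp1, a phosphatase, had 25.7, 3.92, 33.5, 5.63 and 27.1 TPM in the Pv+ cells, against 0, 0, 1.27, 32.9 and 28.2 TPM in the Sst+ cells. Both overlapped.

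Genes of stress and RNA quality had a median of -0.49 over 12 genes above 0 (-0.17 with size factors). Their summed level as deposited was 3161 to 3609 TPM in Pv+ cells and 4295 to 11945 TPM in Sst+ cells. With size factors the sums overlapped, at 3361 to 3975 in Pv+ cells and 2943 to 8152 in Sst+ cells. The nuclear RNA Malat1 had 937, 799, 771, 1093 and 561 TPM in the Pv+ cells, against 2348, 664, 7298, 1516 and 467 TPM in the Sst+ cells. Hsp90ab1, a chaperone, had 561, 1087, 978, 883 and 879 TPM in the Pv+ cells, against 1902, 2333, 1561, 1451 and 1858 TPM in the Sst+ cells, without overlap as deposited and with overlap under size factors. Myelin genes were present at varying levels in both types. Mbp, a myelin protein, had 146, 3.44, 51.4, 2.46 and 86.8 TPM in the Pv+ cells, against 303, 258, 11.5, 116 and 1042 TPM in the Sst+ cells. Olig1, a factor of the oligodendrocyte lineage, was at or near 0 in 9 of 10 cells and reached 81.6 TPM in Pv+ cell 2.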
